A study of Mus musculus with 7 samples.

Results

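The 9 complement genes *C1qa*, *C1qb*, *C1qc*, *C4b*, *C2*, *C3*, *C3ar1*, *Serping1* and *Cd59a* were examined in RNA-seq of the cervical spinal cord. They were taken by their GENCODE M21 symbols from the 55487 genes of the count table, and all 9 were among the 18449 genes with enough counts to be tested. None of the 9 passed the test for a difference between the genotypes. *C4b*, the mouse gene for complement component C4, had the largest difference in means, with 114.2 ± 78.4 CPM (counts scaled to a common library size; SD, n = 4) in *Neat1*-KO; hSOD1G93A mice and 40.7 ± 10.5 CPM (n = 3) in *Neat1*-WT; hSOD1G93A mice. Of the *Neat1*-KO libraries, 3 lay above every *Neat1*-WT library for *C4b* and 1 lay below them all. The log2 fold changes of the 3 chains of C1q were between −0.03 and 0.20, with overlapping libraries.

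The libraries came from 4 *Neat1*-KO; hSOD1G93A mice (*Neat1*-/-) and 3 *Neat1*-WT; hSOD1G93A mice (*Neat1*+/+), all 8 weeks of age, with 1 library per mouse. The hSOD1G93A line expresses mutant human *SOD1*, a gene mutated in familial amyotrophic lateral sclerosis, and *Neat1* is a long non-coding RNA gene. All 7 mice carried the transgene, so every value below is from hSOD1G93A tissue, and mice without the transgene were not analysed here. The parents were *Neat1*+/- females and *Neat1*+/- males with the transgene, and the transgenic line had been kept by mating to B6/SJL F1 females, so the background strain of each mouse was mixed. The study used both sexes, but the sex of each mouse is not given in the sources used here, and *Xist* had at most 4 counts in any library. The replicate numbers below are those of the sample labels, 1 to 4 for *Neat1*-KO and 2 to 4 for *Neat1*-WT. Whole cervical cord was used, and in such bulk tissue fewer cells of a type and less RNA per cell cannot be told apart.

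Each library held between 19661878 and 26031517 counts, and a count of 3, taken as the floor, stood for 0.114 to 0.154 CPM. The targeted gene *Neat1* was at 86.2, 80.5 and 118.4 CPM among *Neat1*-WT (replicates 2 to 4) and at 5.09, 5.40, 5.52 and 4.04 CPM among *Neat1*-KO libraries (replicates 1 to 4), so each library matched its labelled genotype. By correlation no library stood apart, since the mean correlation of each library with the others was between 0.984 and 0.986. The share of counts on ribosomal RNA genes was 0.188 to 0.309% in *Neat1*-KO and 0.149 to 0.180% in *Neat1*-WT libraries, without overlap and highest in *Neat1*-KO replicate 1, and its part in the results below was not tested. Markers of spinal cord were present in every library, and the summed CPM of the astrocyte, oligodendrocyte and motor neuron lists is given with the other cell types below.

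Complement is a cascade of plasma and tissue proteins that tags and lyses targets. In the classical pathway C1q, built of A, B and C chains, binds a target, its proteases cleave C4 and C2, and the resulting convertase cleaves C3, the component on which all the pathways converge. The fragment C3a acts on the receptor C3aR, C1 inhibitor (the product of *Serping1*) blocks the C1 proteases, and CD59 keeps the membrane attack complex from forming. In the central nervous system microglia are the main source of C1q, and astrocytes can make C3 and C4. Complement is known for tagging synapses and for rising in models of amyotrophic lateral sclerosis.

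The chains of C1q are encoded by neighbouring genes. *C1qa*, *C1qc* and *C1qb* lie side by side on the minus strand of chromosome 4 (GRCm38, the build also called mm10), at 136895917 to 136898803, 136889804 to 136893065 and 136880129 to 136886187, with gaps of 2851 and 3616 bp between them. The 250 bases before the RefSeq start (GRCm38.p6) were taken for the genes found in the promoter table, which were 5 of the 9: *C1qb*, *C1qc*, *C3*, *C3ar1* and *Cd59a*. The windows of *C1qb* and *C1qc* are shown because these genes varied together over the libraries (r = 0.86), and that of *C3* because it varied with *C4b* (r = 0.89). They were searched on both strands for AGGAAG (the core of ETS factors), TTGCNNAA (C/EBP), TTCNNNGAA (STAT) and GAAA, any 2 bases, GAAA (interferon response element). Capitals mark AGGAAG, or CTTCCT where it lies on the other strand, in the C1q windows and TTGCNNAA in that of *C3*. Each is printed 5′ to 3′ on the minus strand, for *C1qb* at chr4:136886201-136886450, for *C1qc* at chr4:136892915-136893164 and for *C3* at chr17:57228137-57228386. The RefSeq start is not always that of GENCODE: it lies 13 bases upstream of it for *C1qb* and inside the GENCODE gene for *C1qc*, where the last 151 bases of the window are part of that gene. For *C3* both starts are the same.
C1qb: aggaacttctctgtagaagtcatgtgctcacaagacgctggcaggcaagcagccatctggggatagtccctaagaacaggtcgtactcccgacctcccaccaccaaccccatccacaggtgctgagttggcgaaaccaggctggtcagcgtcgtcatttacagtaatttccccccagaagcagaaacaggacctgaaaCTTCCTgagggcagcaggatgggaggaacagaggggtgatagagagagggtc
C1qc: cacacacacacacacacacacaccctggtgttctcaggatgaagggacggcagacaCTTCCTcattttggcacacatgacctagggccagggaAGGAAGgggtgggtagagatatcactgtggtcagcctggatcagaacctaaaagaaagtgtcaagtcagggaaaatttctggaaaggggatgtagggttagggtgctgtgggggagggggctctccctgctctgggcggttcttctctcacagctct
C3: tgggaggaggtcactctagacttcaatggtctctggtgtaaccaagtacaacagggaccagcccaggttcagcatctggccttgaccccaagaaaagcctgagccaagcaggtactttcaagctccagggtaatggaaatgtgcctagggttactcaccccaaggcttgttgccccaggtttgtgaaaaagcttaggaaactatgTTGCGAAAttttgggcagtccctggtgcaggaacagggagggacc

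AGGAAG was matched once in the window of *C1qb*, with the match starting 52 bases before the RefSeq start, and at 194 and 157 bases in that of *C1qc*. It was found in 29.5% of the 32817 promoter windows of the table, so that a match in any given window is common. TTGCNNAA was matched once in the window of *C3*, at 45 bases, and in 9.57% of all windows. TTCNNNGAA, in 7.01% of all windows, was matched in none of the 5, and the interferon response element, in 2.97% of all windows, was matched in *Cd59a* alone among them, at 187 bases. *C3ar1* held none of the 4. A match of this kind describes the letters and does not show that a factor binds there.

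*C1qa*, the A chain, was at 42.8, 53.2 and 48.4 CPM among *Neat1*-WT libraries (replicates 2 to 4). Among *Neat1*-KO libraries (replicates 1 to 4) it was at 46.0, 58.9, 40.3 and 43.3 CPM. The genotypes overlapped, with means of 47.1 ± 8.17 CPM (SD, n = 4) and 48.1 ± 5.21 CPM (n = 3). The log2 fold change (*Neat1*-KO over *Neat1*-WT, as throughout) was −0.03 ± 0.12 (SE), with a 95% interval of −0.30 to 0.24 and an adjusted p of 0.996 by edgeR. An exact permutation test over the 7 libraries, whose smallest two-sided p is 0.0286, gave p = 0.80.

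*C1qb*, the B chain, was at 30.3, 40.6 and 45.6 CPM among *Neat1*-WT (replicates 2 to 4) and at 42.3, 52.6, 39.6 and 43.3 CPM among *Neat1*-KO libraries (replicates 1 to 4). *Neat1*-KO replicate 2 was the highest library and *Neat1*-WT replicate 2 the lowest, and the groups overlapped. The log2 fold change was 0.20 ± 0.13 (95% interval −0.09 to 0.49, adjusted p = 0.992 by edgeR). *C1qc*, the C chain, was at 32.6, 36.4 and 40.7 CPM among *Neat1*-WT (replicates 2 to 4) and at 35.1, 47.9, 36.8 and 36.1 CPM among *Neat1*-KO libraries (replicates 1 to 4). *Neat1*-KO replicate 2 was again the highest, well above the other *Neat1*-KO libraries. On the log2 scale the fold change was 0.09 ± 0.12 (95% interval −0.16 to 0.35, adjusted p = 0.992 by edgeR). The intervals of all 3 chains lie within 0.49 of 0 on the log2 scale, so a change of the called size, 0.58, lay outside them in both directions.

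**Figure D1:**
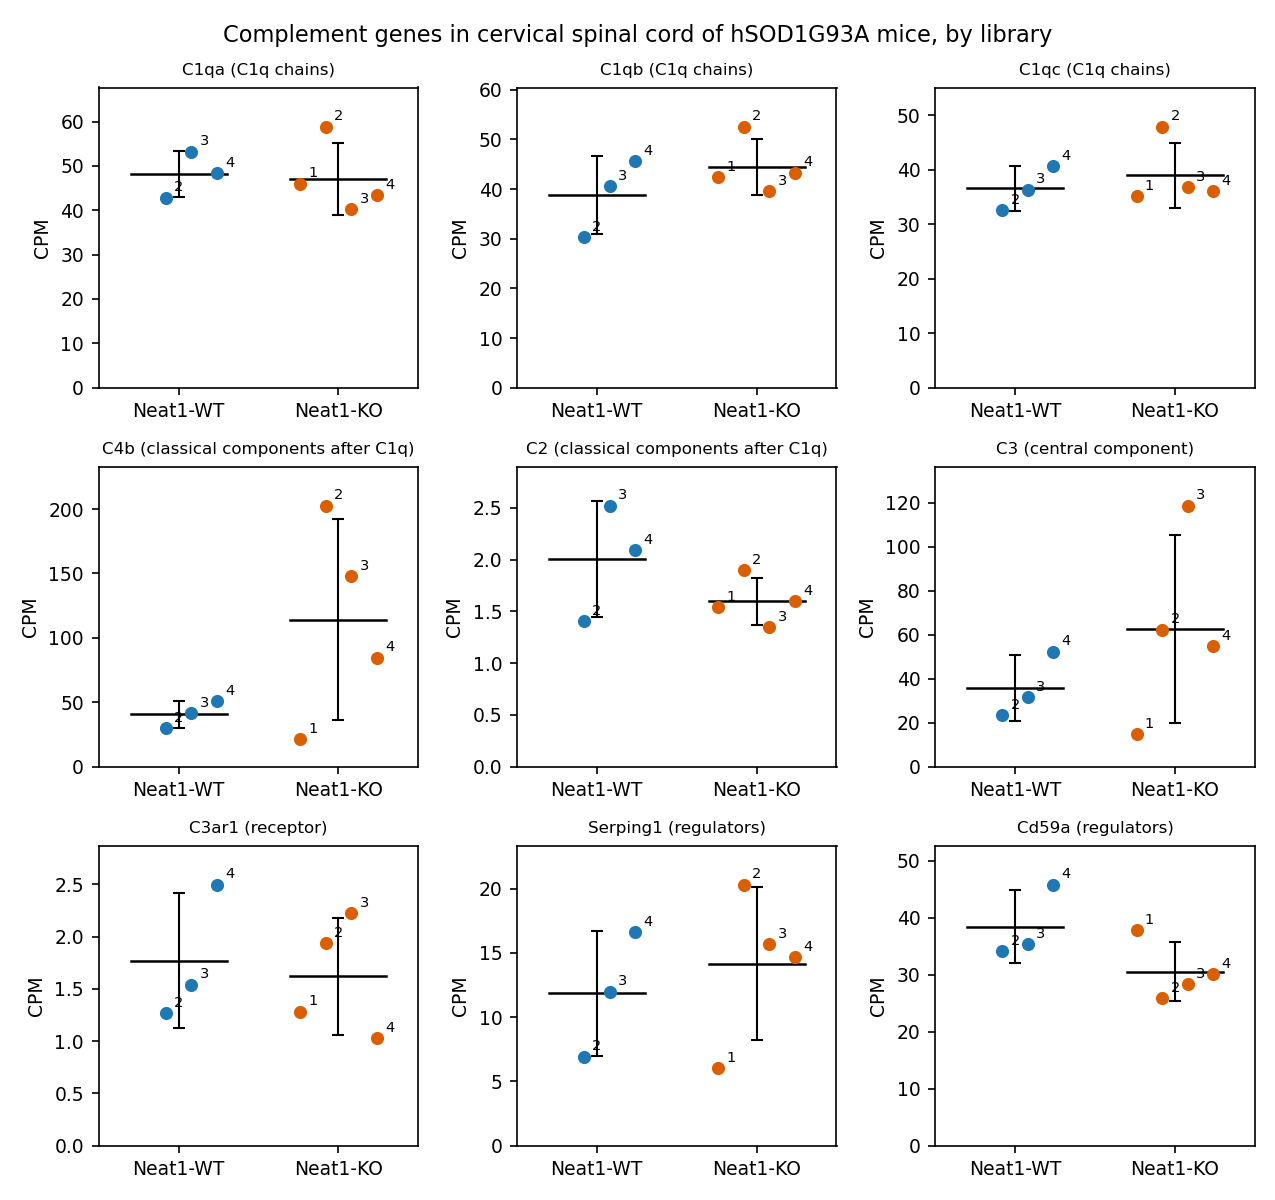
CPM of each complement gene (vertical axis, from 0) in the *Neat1*-WT (blue) and *Neat1*-KO (orange) libraries, with points numbered by replicate and lines for the mean and SD. *C4b* spans 21.5 to 202.6 CPM among the *Neat1*-KO libraries, while the C1q chains overlap between the genotypes.

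After C1q, the classical pathway runs through C4 and C2. *C4b* lies on chromosome 17 at 34728380 to 34743882, minus strand, within the major histocompatibility region. It held 418, 5025, 3191 and 2221 counts, or 21.5, 202.6, 148.1 and 84.7 CPM, among *Neat1*-KO libraries (replicates 1 to 4). Among *Neat1*-WT libraries (replicates 2 to 4) it held 658, 891 and 997 counts, or 29.8, 41.6 and 50.8 CPM. *Neat1*-KO replicates 2, 3 and 4 were above every *Neat1*-WT library, and *Neat1*-KO replicate 1 was the lowest of all 7, with 9.43-fold between the highest and lowest library. Its log2 fold change was 1.49 ± 0.51 (95% interval 0.39 to 2.59), a fold of 2.81 with an interval of 1.31 to 6.01. It had an unadjusted p of 0.0116 and an adjusted p of 0.983 by edgeR, and the exact permutation test gave p = 0.257. The difference was thus not called after adjustment over all genes tested. Without *Neat1*-KO replicate 1, the library that went the other way, the log2 fold change was 1.83 with an adjusted p of 0.00743 by edgeR, which would be a call. Over all alternatives the log2 fold change lay between 1.06 and 1.83, with an unadjusted p under 0.05 in 13 of 16. The 13 include the fit with no filter on low counts, whose p-value does not measure the spread between mice. The unadjusted p was 0.0747 with limma-voom, and by edgeR 0.113 with robust dispersion and 0.0697 with *Xist* as a covariate.

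Some marker lists were low in *Neat1*-KO replicate 1 and others were not. Its summed meningeal fibroblast markers were 173.1 CPM, against 284.4 to 365.9 CPM in *Neat1*-KO replicates 2, 3 and 4 and 167.4 CPM in *Neat1*-WT replicate 2. Its summed reactive astrocyte markers were 1909 CPM, the lowest of the 7, but 1644 CPM of these were *Gfap*, so the sum mostly follows that gene. *H2-D1* of the same list was at 115.9 CPM, the highest of the 7. The summed neuronal markers of *Neat1*-KO replicate 1, 5299 CPM, were the highest of the *Neat1*-KO libraries. *Gfap*, the astrocyte intermediate filament, was at 1712, 2045 and 2376 CPM among *Neat1*-WT (replicates 2 to 4) and at 1644, 2908, 2448 and 2154 CPM among *Neat1*-KO libraries (replicates 1 to 4). The part of these in the *C4b* values was not tested.

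*C4a*, a neighbouring copy 65.2 kb away annotated as a processed transcript, is 96.0% identical to *C4b* over 5378 bp, so reads could be shared between them. It took 1.70 ± 0.861% of the summed *C4a* and *C4b* counts in *Neat1*-KO and 2.63 ± 0.180% in *Neat1*-WT libraries. The share of *C4a* was thus small in every library, from 0.715% (95% Wilson interval 0.441 to 1.16%, counting error only) to 2.81% (1.80 to 4.34%). *C4a* itself was at 0.860, 1.12 and 1.28 CPM among *Neat1*-WT (replicates 2 to 4) and at 0.617, 3.02, 2.74 and 0.610 CPM among *Neat1*-KO libraries (replicates 1 to 4). *Neat1*-KO replicate 4 was low for *C4a* but not for *C4b*.

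Of the genes whose bodies lie within 100 kb of *C4b*, 9 others were tested, and none was called. *Stk19* had the lowest unadjusted p among them, with 18.8 CPM in *Neat1*-KO and 14.7 CPM in *Neat1*-WT. Its log2 fold change was 0.35 ± 0.12 (unadjusted p = 0.0129 and adjusted p = 0.992 by edgeR). *Tnxb*, which encodes tenascin X, an extracellular matrix protein, is 8.56 kb from *C4b*, and its log2 fold change was 0.32 ± 0.42. The log2 fold changes of the others, *Ppt2*, *Prrt1*, *Fkbpl*, *Atf6b*, *C4a*, *Dxo* and *Skiv2l*, were between −0.08 and 0.69.

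*C2*, the protease that C4 binds in the convertase, lies 119 kb from *C4b* at 34862604 to 34898265. It had 29 to 54 counts per library, or 1.403, 2.52 and 2.09 CPM among *Neat1*-WT (replicates 2 to 4) and 1.54, 1.895, 1.35 and 1.602 CPM among *Neat1*-KO libraries (replicates 1 to 4). The genotypes overlapped, and the log2 fold change was −0.32 ± 0.26 (95% interval −0.90 to 0.25, adjusted p = 0.992 by edgeR). Of its exon bases, 42.8% lie under *Gm20547*, a read-through gene of the same strand, and 4.16% under *Zbtb12* on the opposite strand. How the authors' counting treated reads on both is not given in the sources used here, so the level of *C2* is uncertain.

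*C3* lies on chromosome 17 at 57203970 to 57228136, minus strand. It held 289, 1547, 2559 and 1441 counts, or 14.9, 62.4, 118.7 and 55.0 CPM, among *Neat1*-KO libraries (replicates 1 to 4). Among *Neat1*-WT libraries (replicates 2 to 4) it held 520, 675 and 1025 counts, or 23.5, 31.5 and 52.3 CPM. As for *C4b*, *Neat1*-KO replicates 2, 3 and 4 were above every *Neat1*-WT library and replicate 1 was below them, with 8.00-fold between the highest and the lowest. On average this was 62.7 ± 42.8 CPM (SD, n = 4) against 35.8 ± 14.8 CPM (n = 3). edgeR fitted a log2 fold change of 0.81 ± 0.47 (95% interval −0.21 to 1.83, unadjusted p = 0.108 and adjusted p = 0.992 by edgeR, exact permutation p = 0.514). Leaving out 1 library at a time moved it between 0.31 (without *Neat1*-KO replicate 3) and 1.19 (without *Neat1*-WT replicate 4).

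*C3ar1*, the receptor for C3a (chromosome 6, 122847138 to 122856161, minus strand), was among the lowest of the 9. It had 25 to 49 counts, or 1.27, 1.54 and 2.50 CPM among *Neat1*-WT (replicates 2 to 4) and 1.28, 1.94, 2.23 and 1.03 CPM among *Neat1*-KO libraries (replicates 1 to 4). The fitted log2 fold change was −0.12 ± 0.33, and its 95% interval, −0.84 to 0.60, reached past the called size of 0.58 on either side of 0.

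Both regulators were detected in every library. *Serping1* (chromosome 2, 84765387 to 84775444, minus strand) was at 6.93, 12 and 16.6 CPM among *Neat1*-WT (replicates 2 to 4) and at 6.06, 20.3, 15.7 and 14.7 CPM among *Neat1*-KO libraries (replicates 1 to 4). The genotypes overlapped over nearly their whole ranges, and *Neat1*-KO replicate 1 was again the lowest library. The log2 fold change was 0.27 ± 0.33 (95% interval −0.45 to 0.99, adjusted p = 0.992 by edgeR).

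*Cd59a* (chromosome 2, 104095801 to 104115354, plus strand) was the only one of the 9 with an unadjusted p under 0.05 and a lower mean in *Neat1*-KO. It was at 34.2, 35.4 and 45.8 CPM among *Neat1*-WT (replicates 2 to 4) and at 37.9, 26.0, 28.3 and 30.1 CPM among *Neat1*-KO libraries (replicates 1 to 4). *Neat1*-KO replicates 2, 3 and 4 were below every *Neat1*-WT library, and replicate 1 was within the *Neat1*-WT range. *Neat1*-KO averaged 30.6 ± 5.16 CPM (SD, n = 4) against 38.5 ± 6.39 CPM (n = 3). Its log2 fold change was −0.33 ± 0.13 (95% interval −0.63 to −0.04, unadjusted p = 0.0283 and adjusted p = 0.992 by edgeR, exact permutation p = 0.114). Over the alternatives it stayed between −0.45 and −0.19, with adjusted p from 0.156 to 1. *Cd59b*, a copy 4613 bp away that is 90.4% identical over 394 bp, took 4.12 ± 0.747% of the summed *Cd59a* and *Cd59b* counts in *Neat1*-KO and 2.64 ± 0.969% in *Neat1*-WT libraries.

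*Neat1*-KO replicate 1 was the library in which *C4b*, *C3* and *Serping1* were lowest and, among the *Neat1*-KO libraries, *Cd59a* was highest. *Neat1*-KO replicate 2 was the highest of the 7 libraries for *C1qa*, *C1qb*, *C1qc*, *C4b* and *Serping1*, and the lowest for *Cd59a*.

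In all, 0 of the 9 genes were called at an adjusted p under 0.1 with an absolute log2 fold change over 0.58, where 0.0325% of the 18449 genes tested were called (0.0108% higher and 0.0217% lower in *Neat1*-KO). DESeq2 and limma-voom also called 0 of the 9. At an unadjusted p under 0.05 there were 2 of the 9, *C4b* higher and *Cd59a* lower, where 4.64% of all genes passed (2.24% higher and 2.40% lower). For none of the 9 did the libraries of the genotypes fail to overlap, as they did for 5.47% of all genes (2.91% higher and 2.57% lower). The log2 fold change was above 0 for 5 and below 0 for 4 of the 9, where 51.8% of all genes were above and 48.2% below 0, and the median was 0.09 over the 9 and 0.01 over all genes. These shares describe a small list beside the whole table.

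**Figure D2:**
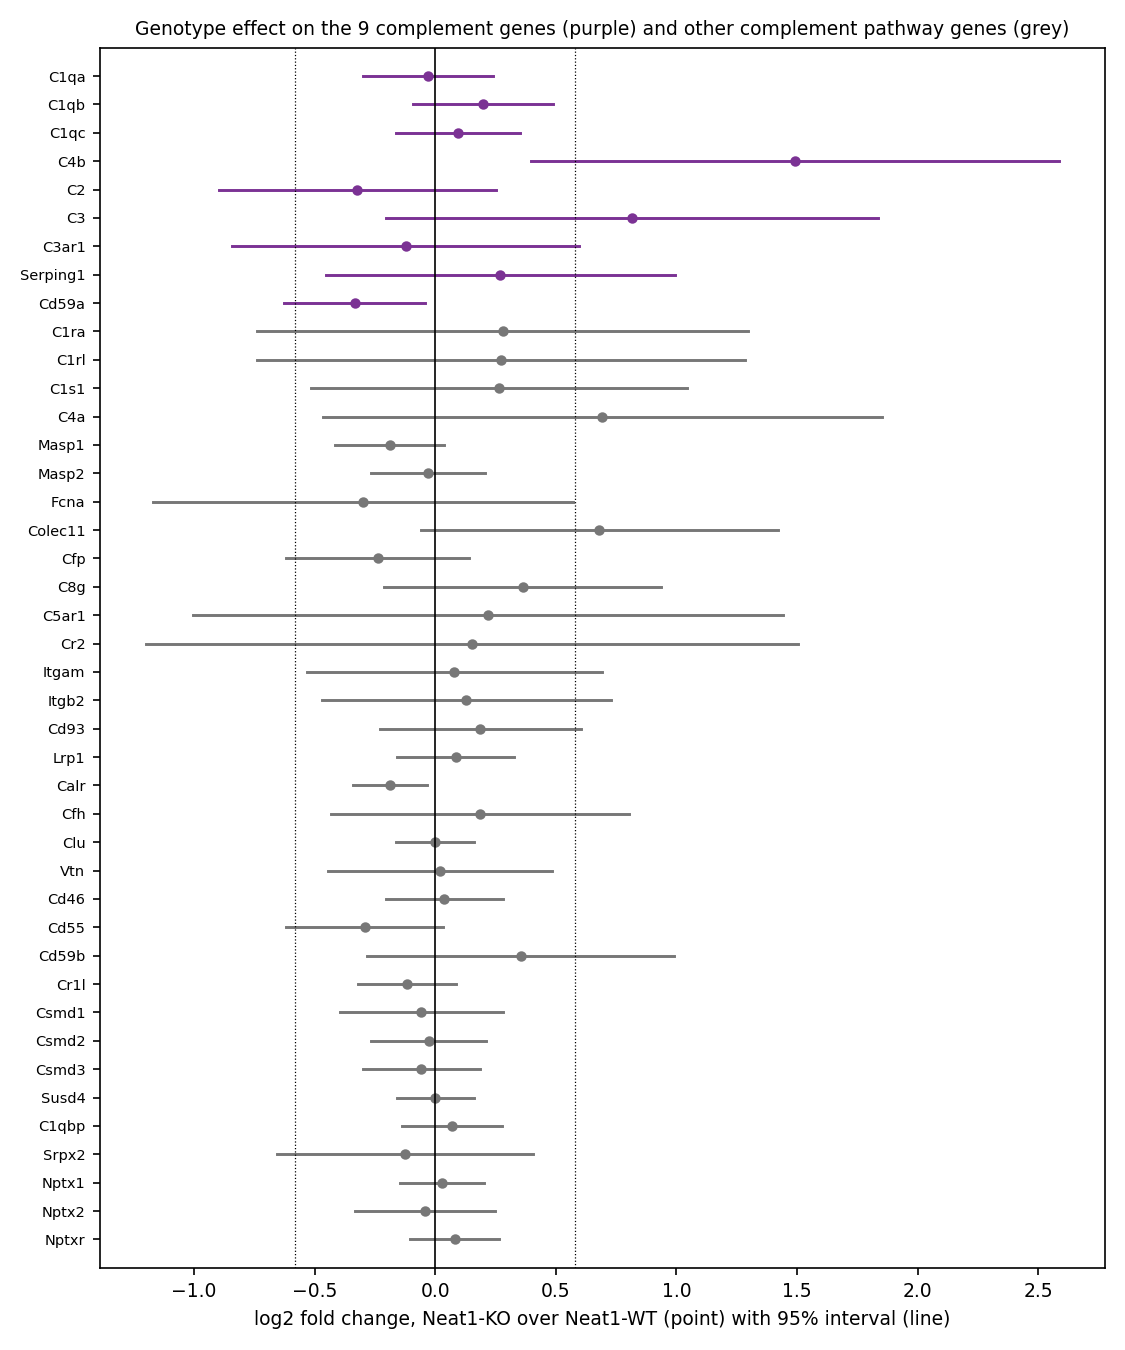
Log2 fold change (horizontal axis, *Neat1*-KO over *Neat1*-WT) with its 95% interval for the 9 complement genes (purple) and the other complement pathway genes that were tested (grey), with dotted lines at the 0.58 threshold on either side of 0. *C4b* has the largest change of those shown, 1.49, and the intervals of *C4b*, *Cd59a* and *Calr* do not include 0.

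The classical genes (*C1qa*, *C1qb*, *C1qc*, *C4b* and *C2*) were set against the regulators (*Serping1* and *Cd59a*) as a description, without a test. The mean fitted log2 fold change of the classical genes exceeded that of the regulators by 0.32, and by 0.15 to 0.41 over the other fits. This value was made by *C4b*: with *C4b* left out, chosen after seeing the data, the mean of the other 4 classical genes was −0.02 and that of the regulators −0.03, a difference of 0.0167. The regulators themselves went opposite ways, with 0.27 for *Serping1* and −0.33 for *Cd59a*. In each library the mean log2 CPM of the classical genes minus that of the regulators was 0.31, 0.64, 0.31 and 0.25 in *Neat1*-KO replicates 1 to 4 and 0.22, 0.24 and −0.14 in *Neat1*-WT replicates 2 to 4. All *Neat1*-KO libraries were above all *Neat1*-WT libraries on this measure, which was made from genes chosen with results of these data known, and *Neat1*-KO replicate 4 and *Neat1*-WT replicate 3 nearly met. The share of ribosomal RNA also separated the genotypes, and its part here was not tested. The group means were 0.38 ± 0.18 (SD, n = 4) and 0.10 ± 0.21 (n = 3). With *C4b* left out the groups overlapped, at −0.31 to 0.26 in *Neat1*-KO and −0.39 to 0.04 in *Neat1*-WT libraries. With the C1q chains alone in place of the classical genes the groups overlapped, at 0.88 to 1.42 in *Neat1*-KO and 0.70 to 1.17 in *Neat1*-WT libraries. The ratio of *C4b* to *Serping1* in CPM was 3.54, 9.97, 9.44 and 5.78 in *Neat1*-KO replicates 1 to 4 and 4.30, 3.47 and 3.06 in *Neat1*-WT replicates 2 to 4, with *Neat1*-KO replicate 1 within the *Neat1*-WT range.

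To compare genes with each other, counts were divided by the length of the merged exons and scaled to the same total in each library (TPM). *C1qa* was highest with 155.9 ± 23.1 TPM (SD over all 7 libraries), followed by *C1qb* with 131.9 ± 22.9 TPM and *C1qc* with 67.1 ± 10.1 TPM. *C1qa* exceeded *C1qb* in all 7 libraries although their ranges overlapped, and *C1qb* exceeded *C1qc* with no overlap. *Cd59a* at 63.8 ± 12.5 TPM could not be set apart from *C1qc*, which was above it in 3 of 7 libraries. *C4b* at 50.1 ± 41.9 TPM and *C3* at 34.3 ± 23.6 TPM followed with wide spreads, *C4b* being above *C3* in 6 of 7 libraries and below *Cd59a* in 5 of 7. *Serping1* was at 19.5 ± 8.02 TPM, below *C3* in all 7 libraries with overlapping ranges. *C2* at 1.56 ± 0.389 TPM and *C3ar1* at 1.34 ± 0.460 TPM were far below the rest and overlapped each other. This order is over all 7 libraries, and in the group means the middle of it differed between the genotypes. In *Neat1*-KO, *C4b* averaged 69.4 ± 48.3 TPM (SD, n = 4), beside *C1qc* at 68.9 ± 12.03 TPM and above the mean of *Cd59a* at 57.2 ± 7.38 TPM. By library, *C4b* was above both *Cd59a* and *C1qc* in *Neat1*-KO replicates 2 and 3 (123.6 and 90.4 TPM). It was below both in *Neat1*-KO replicates 1 and 4 (12.1 and 51.4 TPM). In *Neat1*-WT, *Cd59a* averaged 72.6 ± 13.5 TPM (n = 3) and *C1qc* 64.7 ± 8.52 TPM, and *C4b* at 24.5 ± 6.82 TPM was beside *C3* at 23.9 ± 10.4 TPM.

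**Figure D3:**
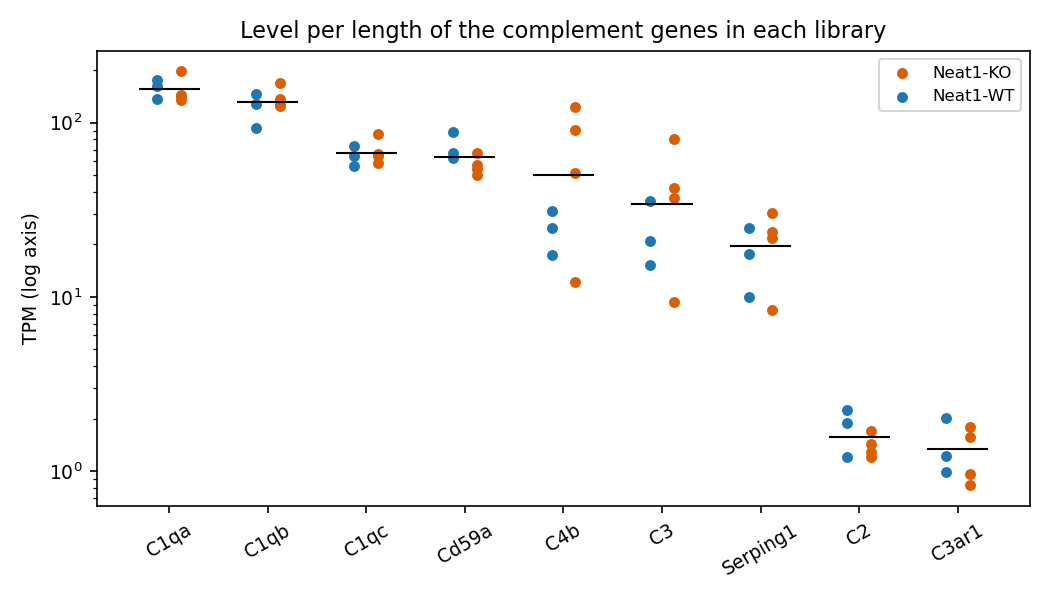
TPM (vertical log axis) of each complement gene in each *Neat1*-KO (orange) and *Neat1*-WT (blue) library, with a line at the mean over the 7 libraries, in order of that mean. *C1qa* and *C1qb* stand at the top, and *C2* and *C3ar1* lie below 3 TPM in every library.

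Within C1q, *C1qa* made up 43.6, 43.6, 41.1 and 41.6% of the summed TPM of the 3 chains in *Neat1*-KO replicates 1 to 4 and 47.9, 47.7 and 42.5% in *Neat1*-WT replicates 2 to 4. *C1qb* made up 38.5 ± 1.03% in *Neat1*-KO and 35.2 ± 2.97% in *Neat1*-WT, and *C1qc* 19.0 ± 0.920% and 18.8 ± 1.17%. The shares overlapped between the genotypes for each chain. They depended on the length used: with the principal transcript of 1203 bases in place of 1931 bases of merged exons for *C1qc*, its share over all libraries was 27.3% instead of 18.9%.

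The 9 genes differed in how much they varied between libraries of a genotype. The biological coefficient of variation, the spread left after counting error, was 43.4% for *C4b* and 41.7% for *C3*, at percentiles 99.0 and 98.8 of all genes tested. It was 30.5% for *Serping1* and 27.2% for *C3ar1*, and 20.4% for *C2*. For *C1qa*, *C1qb*, *C1qc* and *Cd59a* it was 12.2, 12.9, 11.7 and 13.1%, near the common value over all genes of 12.8%. *C4b* and *C3* thus had wide intervals at counts of 289 or more per library. The coefficient is 1 value per gene fitted over both genotypes, and the spread of these 2 genes lay mainly in *Neat1*-KO. The SD of log2 CPM was 1.43 in *Neat1*-KO (n = 4) and 0.389 in *Neat1*-WT (n = 3) for *C4b*, and 1.25 and 0.581 for *C3*. Within *Neat1*-WT, *Serping1* (0.633), *C3ar1* (0.48) and *C2* (0.411) varied more than *C4b*.

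**Figure D4:**
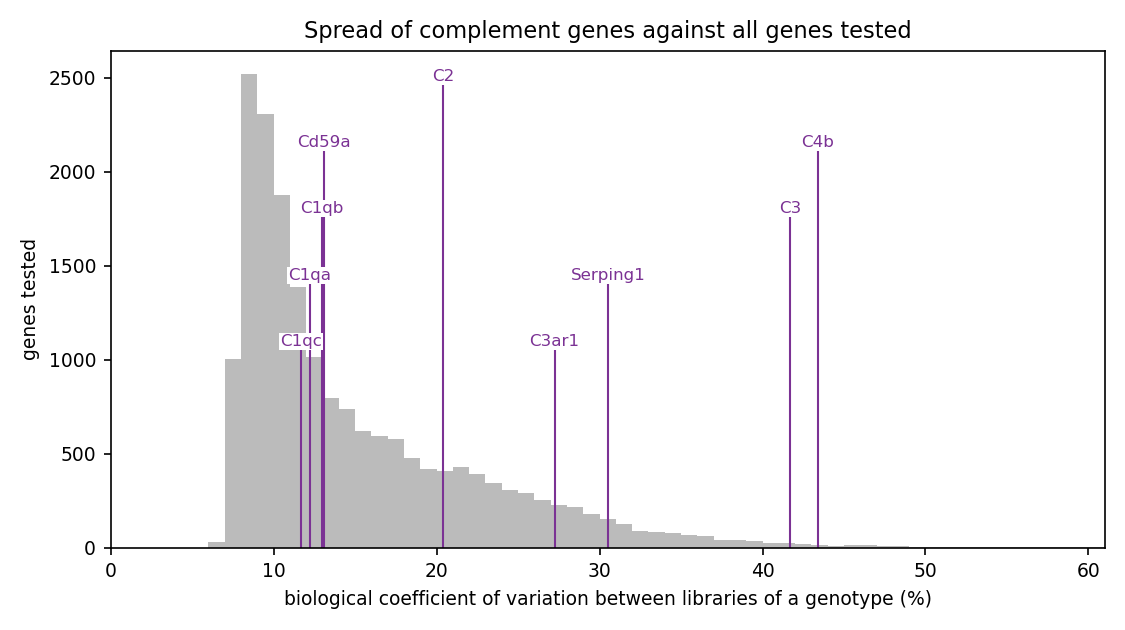
Number of genes tested (vertical axis) by biological coefficient of variation in percent (horizontal axis), with the 9 complement genes marked by purple lines whose heights carry no value. *C4b* and *C3* lie in the upper tail at 43.4 and 41.7%, and the C1q chains and *Cd59a* lie between 11.7 and 13.1%.

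Over the 7 libraries 10 relations were computed on log2 CPM, 3 of them, those with meningeal markers, chosen after seeing the data. *C3* and *C4b* varied together, with Pearson r = 0.89 (exact permutation p = 0.00774, adjusted over the 10 p = 0.0387) and Spearman rho = 0.96 (exact permutation p = 0.00278, adjusted p = 0.0139). Without the 2 libraries farthest from the median of *C3*, r was 0.84. *C4b* and *Serping1* had r = 0.87 (exact permutation p = 0.0137, adjusted p = 0.0444) and rho = 0.89 (exact permutation p = 0.0123, adjusted p = 0.041). Without the 2 libraries farthest from the median of *C4b*, *Neat1*-KO replicates 2 and 3, r was 0.88. That value still included *Neat1*-KO replicate 1, the lowest library for both genes. For deviations from the genotype means r was 0.90 and 0.91, so both relations were present within the genotypes.

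Among the C1q chains, *C1qb* and *C1qc* had r = 0.86 (exact permutation p = 0.0222, adjusted p = 0.0444) and rho = 0.68 (exact permutation p = 0.11, adjusted p = 0.157), but r was 0.61 without the 2 farthest libraries, so the relation rests in part on those. *C1qa* with *C1qb* had r = 0.64 (exact permutation p = 0.122, adjusted p = 0.152) and rho = 0.71 (exact permutation p = 0.0881, adjusted p = 0.147), and r = 0.49 without the 2 farthest. *C1qa* with *C1qc* had r = 0.74 (exact permutation p = 0.054, adjusted p = 0.0771) and rho = 0.54 (exact permutation p = 0.236, adjusted p = 0.295), and r = 0.50 without the 2 farthest. The mean log2 CPM of the 3 chains had r = 0.53 with *C4b* (exact permutation p = 0.219, adjusted p = 0.219) and rho = 0.32 (exact permutation p = 0.498, adjusted p = 0.498). With the mean of the microglial markers it had r = 0.60 (exact permutation p = 0.153, adjusted p = 0.17) and rho = 0.32 (exact permutation p = 0.498, adjusted p = 0.498).

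Meningeal fibroblast markers, 11 genes led by *Col1a2* and *Pdgfra*, moved with some of these genes. Their summed level was 167.4, 227.5 and 395.8 CPM among *Neat1*-WT (replicates 2 to 4) and 173.1, 365.9, 309.0 and 284.4 CPM among *Neat1*-KO libraries (replicates 1 to 4). All 11 were tested, 0 were called by edgeR and 1 had an unadjusted p under 0.05, where 4.64% of all genes did. Their median log2 fold change was 0.13. Their mean log2 CPM followed *Serping1* with r = 0.96 (exact permutation p = 0.00139, adjusted p = 0.0139), rho = 0.96 (exact permutation p = 0.00278, adjusted p = 0.0139) and r = 0.93 without the 2 farthest libraries. It followed *C3* with r = 0.84 (exact permutation p = 0.0202, adjusted p = 0.0444), rho = 0.79 (exact permutation p = 0.048, adjusted p = 0.096) and *C4b* with r = 0.82 (exact permutation p = 0.0327, adjusted p = 0.0545), rho = 0.86 (exact permutation p = 0.0238, adjusted p = 0.0595). Without the 2 farthest libraries, *Neat1*-KO replicate 1 and *Neat1*-WT replicate 2, these were 0.56 for both, so they rest on those libraries. *Neat1*-WT replicate 4 had the highest summed markers, 395.8 CPM, and a *C4b* level of 50.8 CPM, below *Neat1*-KO replicates 2, 3 and 4. The part of meningeal tissue in these values was not tested.

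**Figure D5:**
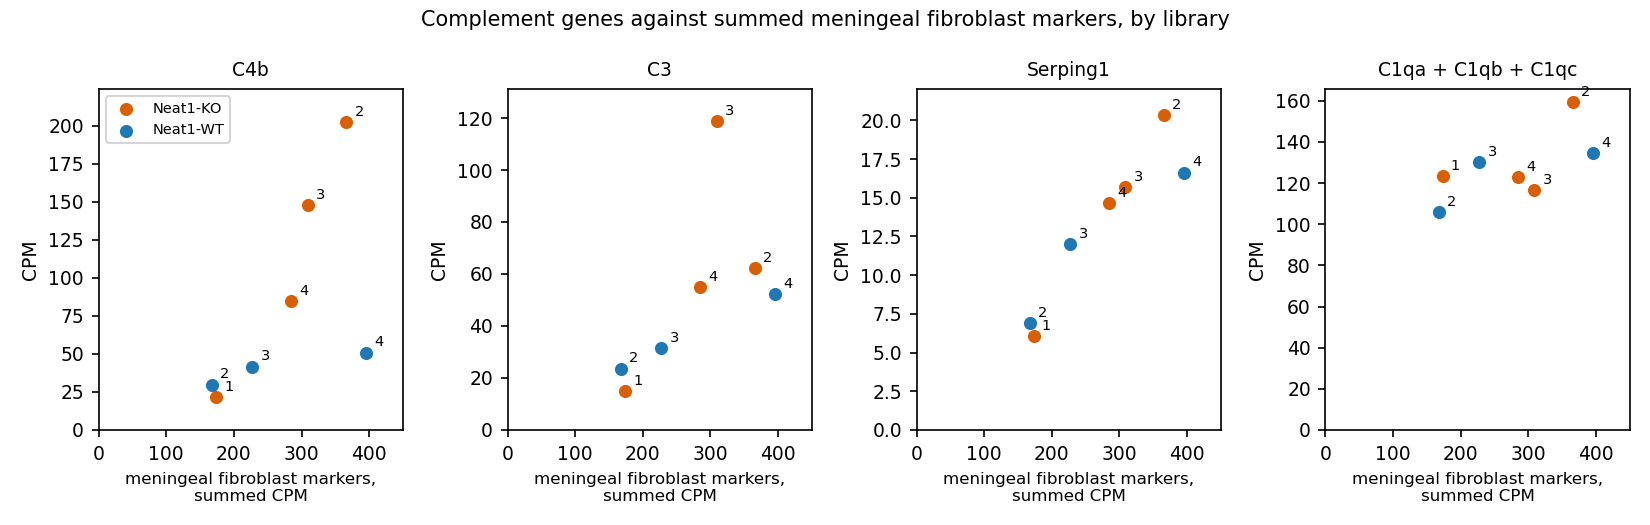
CPM of *C4b*, *C3*, *Serping1* and the sum of the C1q chains (vertical axes) against the summed CPM of 11 meningeal fibroblast markers (horizontal axis) in each library, numbered by replicate, *Neat1*-KO in orange and *Neat1*-WT in blue. *Serping1* follows the markers in both genotypes, while for *C4b* the *Neat1*-KO replicates 2 to 4 lie above *Neat1*-WT replicate 4, which has the highest marker sum.

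The markers of the other cell types of the cord were summed in the same way, and no gene of these lists was called by edgeR. Microglial markers (18 of 18 tested, *Csf1r* among them) summed to 443.7 to 571.7 CPM in *Neat1*-KO and 422.6 to 578.0 CPM in *Neat1*-WT. Their median log2 fold change was 0.06, with 16 above 0, where 51.8% of all genes were. Markers of disease-associated microglia (12 of 14 tested, led by *Apoe* and *Ctsb*) summed to 2826 to 3408 and 3013 to 3156 CPM. Most of this was *Apoe*, at 1588 to 2101 CPM over the 7 libraries, so the sum says little of the scarcer markers of that list. Markers of perivascular macrophages (8 of 8, led by *Stab1* and *Mrc1*) summed to 15.1 to 25.8 and 15.6 to 32.7 CPM. The ranges overlapped between the genotypes for all 3 lists.

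Astrocyte markers (12 of 12 tested, led by *Slc1a2* and *Gfap*) summed to 8716 to 10000 CPM in *Neat1*-KO and 8970 to 10050 CPM in *Neat1*-WT, and reactive astrocyte markers (15 of 16, led by *Gfap* and *H2-D1*) to 1909 to 3236 and 1962 to 2707 CPM. Neuronal markers (9 of 9, led by *Snap25* and *Eno2*) summed to 4767 to 5299 and 4722 to 5385 CPM. Motor neuron markers (6 of 6, led by *Slc5a7* and *Prph*) summed to 277.8 to 338.4 CPM in *Neat1*-KO and 359.7 to 428.1 CPM in *Neat1*-WT. All 6 had a log2 fold change below 0, with a median of −0.25, where 48.2% of all genes were below 0. At an unadjusted p under 0.05 there were 3 of the 6, all lower, where 2.40% of all genes were. The ranges of the sum did not overlap. Oligodendrocyte markers (10 of 10, led by *Mbp*) summed to 35090 to 38060 and 36860 to 45030 CPM, with a median log2 fold change of −0.17. Of the 10, 9 had a log2 fold change below 0, where 48.2% of all genes did. At an unadjusted p under 0.05, 4 of the 10 were lower, where 2.40% of all genes were. The part of these in the complement values was not tested.

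Endothelial and pericyte markers (11 of 11 tested, led by *Rgs5* and *Vtn*) summed to 360.7 to 432.5 CPM in *Neat1*-KO and 346.5 to 462.3 CPM in *Neat1*-WT, and haemoglobin and other red cell genes (5 of 5, led by *Hbb-bs* and *Hba-a1*) to 5.80 to 12.5 and 8.31 to 13.6 CPM. Neutrophil and monocyte genes (4 of 9 tested, led by *S100a9* and *Ngp*) summed to 2.59 to 4.07 and 2.96 to 4.84 CPM, and *Ly6g*, which defines neutrophils, was at 0 in 6 of the 7 libraries. Blood cells thus gave few counts in either genotype.

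The rest of the complement system was described by a list of 55 further genes, of which 33 passed the filter and 4 had no count. None of the 33 was called by edgeR, and 1, *Calr*, had an unadjusted p under 0.05, where 4.64% of all genes did. The log2 fold change was above 0 for 20 and below 0 for 13 of them, with a median of 0.04, where 51.8% of all genes were above 0. Neither count stood far from its share over all genes. *Calr*, which encodes calreticulin, a chaperone of the endoplasmic reticulum that also binds C1q, had 316.8 ± 14.7 CPM among *Neat1*-WT (SD, n = 3) and 278.1 ± 17.4 CPM among *Neat1*-KO libraries (n = 4). Its libraries did not overlap between the genotypes, as for 5.47% of all genes, and the log2 fold change was −0.19 ± 0.07 (adjusted p = 0.992 by edgeR, exact permutation p = 0.0286, the smallest possible).

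By role, the C1 proteases were scarce, with 3 of 5 tested. *C1s1* was at 1.45 ± 0.190 CPM in *Neat1*-KO and 1.22 ± 0.721 CPM in *Neat1*-WT, and *C1ra* at 1.14 ± 0.514 and 0.959 ± 0.607 CPM. Neither had an unadjusted p under 0.05. Of the lectin pathway 4 of 8 were tested, led by the proteases *Masp1* (23.5 ± 2.21 against 26.7 ± 2.51 CPM) and *Masp2* (17.4 ± 1.53 against 17.8 ± 1.72 CPM). Of the alternative pathway only *Cfp*, which encodes properdin, was tested, at 3.25 ± 0.300 CPM in *Neat1*-KO and 3.83 ± 0.267 CPM in *Neat1*-WT. Of the terminal components only *C8g* was, at 2.0 ± 0.459 and 1.56 ± 0.216 CPM, and the other 6 were too low to be tested.

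Receptors were tested for 7 of 10 genes, led by the scavenger receptor *Lrp1* (483.5 ± 71.7 against 456.2 ± 47.7 CPM) and *Calr*. Of the fluid-phase regulators 3 of 7 were tested, led by *Clu*, which encodes clusterin (756.0 ± 67.6 against 757.3 ± 8.92 CPM, log2 fold change −0.003 ± 0.07), and *Vtn*, which encodes vitronectin (61.6 ± 16.4 against 60.9 ± 18.5 CPM). Of the membrane regulators 8 of 9 were tested, 3 above and 5 below 0, led by *Susd4* (130.6 ± 8.41 against 130.5 ± 5.78 CPM) and *Csmd3* (30.1 ± 3.94 against 31.4 ± 3.03 CPM). Among other proteins that bind or inhibit C1q, all 5 were tested, led by the neuronal pentraxin *Nptx1* (200.7 ± 19.0 against 196.8 ± 6.94 CPM) and the pentraxin receptor *Nptxr* (69.8 ± 6.43 against 66.1 ± 2.61 CPM). Apart from *Calr*, none of these had an unadjusted p under 0.05, and the 95% interval of the log2 fold change was −0.16 to 0.16 for both *Clu* and *Susd4*.

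Finally, genes with a mean of at least 10 CPM, 10901 in number, were ranked by how closely their log2 CPM followed the complement genes over the 7 libraries. The 5 most like the mean of the C1q chains were *Lbh* (r = 0.97), *Rapgef1* (0.97), *4930581F22Rik* (0.96), *Man2c1* (0.96) and *Nudcd3* (0.95). The 5 most like *C4b* were *Ift172* (r = 0.98), *Lgals3bp* (0.97), *Stx1a* (0.96), *Hlf* (0.96) and *Col18a1* (0.96). These were picked as the highest of many and with 7 libraries, so they are given as a description only.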

How the data were processed

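RNA-seq of the cervical spinal cord was analysed for 4 *Neat1*-KO; hSOD1G93A and 3 *Neat1*-WT; hSOD1G93A mice. The authors made poly(A) directional paired-end libraries, trimmed reads with Trimmomatic 0.38, aligned them with HISAT2 2.1.0 to mm10 and counted uniquely mapped reads with featureCounts 1.6.3, per the methods and the submitters' processing notes, and deposited raw counts per gene, not normalized. The annotation release and the strand setting of the counting are not given in the sources used here. Names and positions came from GENCODE M21, which names 55227 of the 55487 genes.

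In edgeR 4.0.16 (R 4.3.3), filterByExpr left 18449 genes, and the quasi-likelihood test was run on counts with TMM factors and Benjamini-Hochberg adjustment. Calls needed an adjusted p below 0.1 and a log2 fold change beyond 0.58 in either direction. Alternatives used DESeq2 1.42.0 and limma 3.58.1, and scripts were tested on simulated data. Correlations used log2 CPM with a prior count of 2, permutation tests SciPy 1.17.1, and copies were found with BLAST 2.17.0. Intervals on shares and the floor of 3 counts cover counting error only. The 9 genes, the pathway list and the marker lists were chosen with earlier results of these data known. Genes were named by a rule: the 9 genes, *Neat1*, near copies, pathway genes at an unadjusted p under 0.05 or the 2 highest of each role, the leading genes of each marker list (some are not reported here), genes within 100 kb of *C4b*, and the 5 genes most like C1q and *C4b*.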

Additional observations from a re-analysis of the deposited data

Results flagged for a closer look

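Of 55 results with 4 libraries in a group, 3 had 1 library far from the other 3 by Dixon's criterion (the gap to the nearest library over the range), where chance gives about 1 in 20, or 2.75. *C1qc* in *Neat1*-KO replicate 2 was at 47.9 CPM against 35.1 to 36.8 CPM in replicates 1, 3 and 4 (gap over range 0.867). *Lrp1* in *Neat1*-KO replicate 1 was at 376.4 CPM against 511.7 to 527.8 CPM (0.894). The summed perivascular macrophage markers in the same library were at 15.1 CPM against 25.0 to 25.8 CPM (0.930).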

How the results depend on the processing

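The number of genes called over the whole table, 6, was 124 with no filter on low counts, 27 with DESeq2 and 3 to 31 with 1 library left out (31 when *Neat1*-KO replicate 1 was left out, and 3 and 11 when replicates 3 and 4 of *Neat1*-WT were). Of the 9 complement genes, 0 were called, but 2 without a filter (*C4b*, adjusted p = 5.52e-42, and *C3*, adjusted p = 1.82e-11, by edgeR). In that fit their log2 fold changes, 1.49 and 0.812, were near those of the main fit, and their libraries overlap between the genotypes. The exact permutation test gave p = 0.257 and 0.514 for them, so the small p-values of that fit do not measure the spread between mice. With 1 library left out, 0 to 1 of the 9 genes were called (*C4b* without *Neat1*-KO replicate 1). At an unadjusted p under 0.05 the 9 genes gave 2, but 1 with limma-voom or robust dispersion (*Cd59a*) and 0 with *Xist* as a covariate. *Xist* had at most 4 counts in any library, near the floor of 3, so that fit cannot be read as an adjustment for sex. With 1 library left out the 9 genes gave 1 to 4 at that p (4 when *Neat1*-KO replicate 1 was left out, and 1 for each of *Neat1*-KO replicates 2, 3 and 4). The other pathway genes gave 1, but 5 with no filter, 2 with *Xist* as a covariate and 0 to 4 with 1 library left out (for *Neat1*-KO, 3 without replicate 1, 2 without replicate 3 and 0 without replicate 4, and for *Neat1*-WT, 2 without replicate 3 and 4 without replicate 4), and none was called under any of 18 settings. The cause of these shifts was not tested.

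With the replicate number as a block, 39 genes were called, 1 of them a complement gene (*C4b*, log2 fold change 1.78, adjusted p = 0.00488 by edgeR), and 4 complement genes had an unadjusted p under 0.05. The labels do not say whether the numbers pair the mice. Libraries of the same number had correlations of −0.202, −0.122 and −0.0147 between their deviations from the genotype means. With so few libraries these values cannot decide whether the mice were paired.

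The log2 fold change changed sign for *C1qa* (0.037 without *Neat1*-KO replicate 3, 0.00813 without *Neat1*-KO replicate 4 and 0.047 without *Neat1*-WT replicate 3, with a range of −0.157 to 0.047 over libraries left out), *C1qc* (−0.0214 without *Neat1*-KO replicate 2, with a range of −0.0214 to 0.176, and −0.00377 with *Xist*), *C3ar1* (0.0502 without *Neat1*-KO replicate 4 and 0.201 without *Neat1*-WT replicate 4, with a range of −0.316 to 0.201) and *Serping1* (−0.00559 without *Neat1*-WT replicate 2, with a range of −0.00559 to 0.589), none of them called. With *C4b* left out of the classical genes, chosen after seeing the data, their mean log2 fold change minus that of the regulators was 0.0167 instead of 0.318. By principal transcript length, chosen after seeing the data, the shares of *C1qa*, *C1qb* and *C1qc* were 39.5, 33.3 and 27.3% instead of 44.0, 37.1 and 18.9%. The directions for *C1qb*, *C4b*, *C2*, *C3* and *Cd59a* were the same under all 16 settings run for each. Depth limits *C2* and *C3ar1*, at 25 to 54 counts.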
